A study of Homo sapiens with 12 samples.

Results

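NRF2, encoded by NFE2L2, is a transcription factor of the oxidative stress response. The genes described here are NFE2L2, its negative regulator KEAP1 and 7 genes known as NRF2 targets, namely HMOX1, NQO1, GCLM, GCLC, SRXN1, TXNRD1 and OSGIN1. These 9 of the 61860 genes in the deposited counts were chosen by name. Each passed the filter on low counts in both experiments. RNA was sequenced from 22Rv1, a human prostate cancer cell line, grown in RPMI-1640 with fetal bovine serum. There were 12 libraries in 4 groups of 3. In the first experiment the cells received siRNA against ETS1, a transcription factor of the ETS family, or were that experiment's controls. In the second they received siRNA against ZNF783, a zinc finger gene, or were its own controls. What the control cells were given, the siRNA sequences and the time of harvest are not given in the sources used here. Nothing in the labels says that replicates were separate cultures, so p-values measure the spread between these libraries, which may be technical. All groups are 1 cell line, and no protein, redox state or NRF2 activity was measured.

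In unstressed cells KEAP1 holds NRF2 in the cytoplasm and, as the substrate adaptor of a CUL3 ubiquitin ligase, sends it to the proteasome. Oxidants and electrophiles modify cysteines of KEAP1, NRF2 then accumulates, enters the nucleus, pairs with a small MAF protein and binds antioxidant response elements in its target genes. Control of NRF2 is therefore largely at the level of its protein, so the NFE2L2 transcript and NRF2 activity need not move together. The target genes supply glutathione, thioredoxin reduction, quinone reduction and haem breakdown. In prostate cancer, as in other tumours, the pathway is known for its part in redox balance and drug tolerance.

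Levels are given as CPM, counts scaled to libraries of 1e+06 counts, after library sizes were adjusted by TMM, a method that matches libraries over the bulk of their genes. The libraries held between 13518177 and 48996691 counts. A floor of 3 counts lies between 0.0612 and 0.222 CPM, and the lowest count of any of the 9 genes in any library was 132. Floors cover counting error only. ETS1 itself had 0, 3 and 0 counts with ETS1 siRNA and 0, 1 and 0 in the controls, at or under the floor everywhere, so its knockdown could not be checked. ZNF783 stood at 28.7, 27.4 and 28.0 CPM with ZNF783 siRNA and at 33.8, 34.9 and 35.7 CPM in its controls, a fall (log2 fold change -0.31, edgeR adjusted p = 2.46e-05). ZNF783 was lower with ETS1 siRNA too, at 12.5, 18.7 and 18.5 CPM against 21.0, 21.6 and 22.3 CPM (-0.38, adjusted p = 0.258, and -0.23, adjusted p = 0.00146, without replicate 1), and the difference between the siRNAs was not called (-0.05, adjusted p = 0.925). Its fall is thus not shown to be particular to the siRNA against it. Replicate 1 of ETS1 siRNA stands apart. Its counts differed from those of replicates 2 and 3 with a chi-square per degree of freedom of 35.6 and 34.3, against 1.32 to 2.70 for the 10 other pairs of replicates. Results of the 9 genes for ETS1 siRNA are therefore given with and without this library. The summed level of 10 prostate luminal markers was 3403 to 3723 CPM over all libraries and none was at 0. That of 14 leukocyte, endothelial, fibroblast and basal markers was 15.5 to 31.0 CPM, with 12 or 13 of them below 1 CPM in every library of a group. The luminal sum was lower with both siRNAs than in their controls, with no overlap: 3571 to 3683 against 3695 to 3723 CPM for ETS1 siRNA and 3403 to 3419 against 3613 to 3662 CPM for ZNF783 siRNA. The sum of the other markers was 24.8 to 26.3 against 28.5 to 31.0 CPM with ZNF783 siRNA and overlapped for ETS1 siRNA (15.5 to 17.3 and 16.5 to 18.3 CPM). Most of that sum was the fibroblast gene COL1A1, with means of 23.3 against 27.3 CPM for ZNF783 siRNA. Its fall there (log2 fold change -0.23, edgeR adjusted p = 0.00535) was not called with the GC correction described below (-0.11, adjusted p = 0.219). The part of these shifts in the results was not tested. In bulk RNA, fewer cells with a transcript and less of it per cell cannot be told apart.

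Among the 9 genes the order of levels per length was led by TXNRD1 and closed by OSGIN1 in both control groups. In the ETS1 controls, mean CPM per kilobase of exon ran from 106 for TXNRD1 through 71.4 for NQO1, 22.5 for KEAP1, 14.6 for NFE2L2, 13.5 for GCLC, 9.11 for GCLM, 6.48 for HMOX1 and 3.90 for SRXN1 to 2.48 for OSGIN1. No neighbours in this order overlapped between libraries. In the ZNF783 controls TXNRD1 had 92.5, NQO1 43.3, KEAP1 27.0, NFE2L2 13.3, GCLC 13.0, GCLM 9.51, SRXN1 5.75, HMOX1 5.45 and OSGIN1 2.88 CPM per kilobase. There NFE2L2 and GCLC overlapped, and so did SRXN1 and HMOX1. The place of SRXN1 is uncertain in both, since 2292 of its 2698 exonic bases are shared with another gene on the same strand. The experiments have separate libraries and controls, so a difference between the control groups, such as that of NQO1, cannot be told apart from a difference between the experiments.

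**Figure D1:**
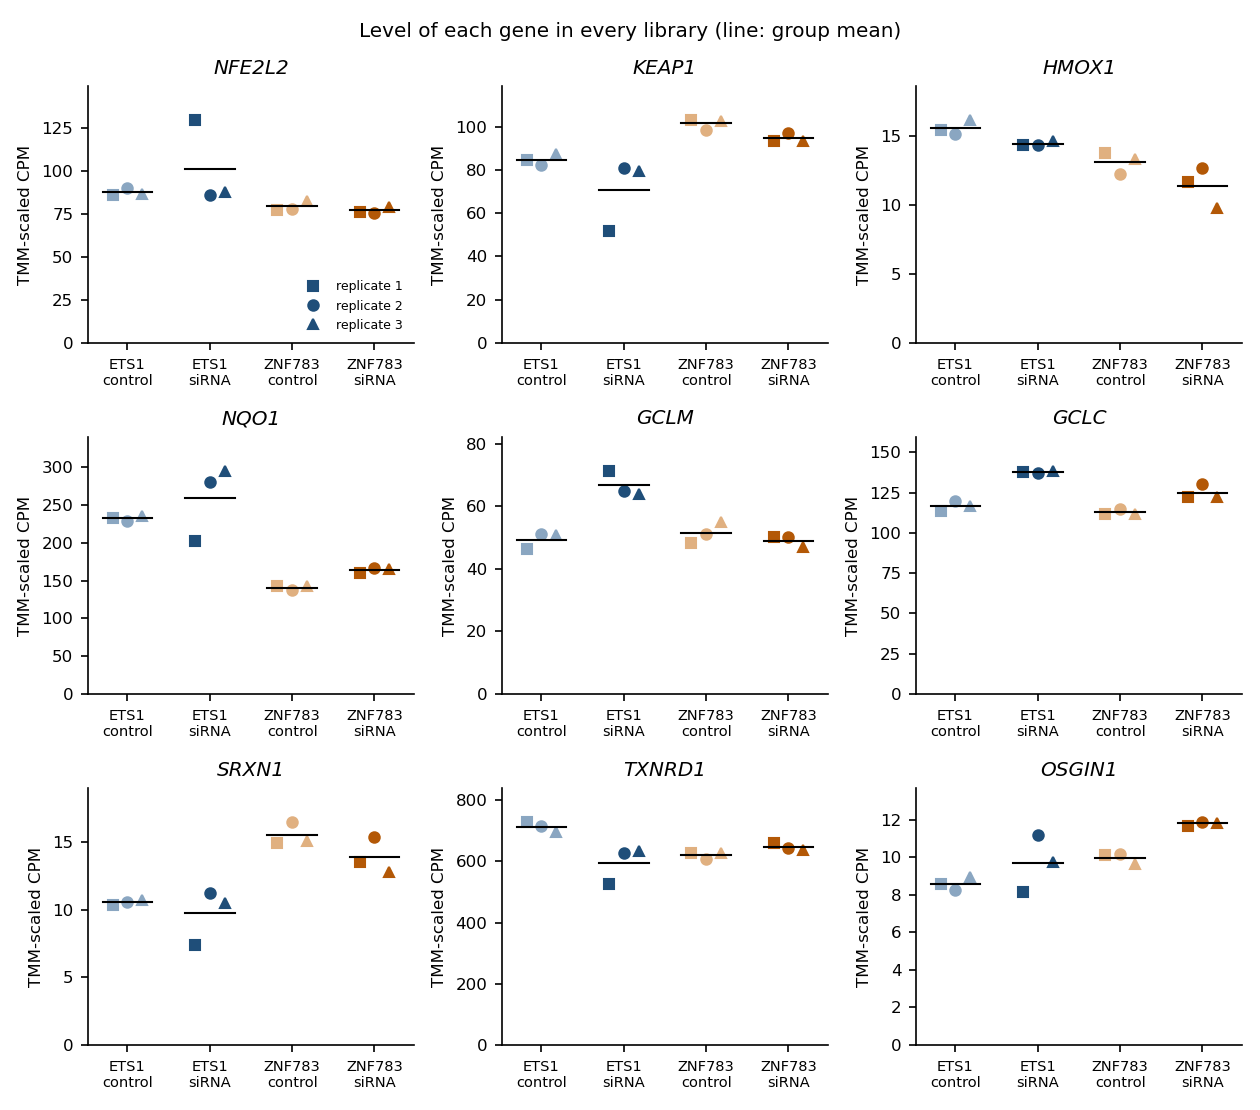
Level of each of the 9 genes in every library, as TMM-scaled CPM on the vertical axis, for the 4 groups on the horizontal axis. Each marker is 1 library (square, circle and triangle for replicates 1, 2 and 3) and each line a group mean. In the ETS1 siRNA group replicate 1 stands at 129.7 CPM for NFE2L2 and 51.9 CPM for KEAP1, away from its partners, while the 3 GCLM libraries of that group all lie above every control.

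NFE2L2 (ENSG00000116044, GRCh38 chromosome 2, 177227595 to 177392697, minus strand) was measured at 129.7, 85.8 and 87.7 CPM with ETS1 siRNA and at 85.7, 89.9 and 86.7 CPM in the controls. Only replicate 1 was high, and the other libraries of the group lay within the controls' range. The means were 101 ± 24.8 and 87.4 ± 2.18 CPM (SD, n = 3). The difference did not pass (log2 fold change 0.21, SE 0.155, edgeR adjusted p = 0.471), and without replicate 1 it was -0.02 (adjusted p = 0.772). With ZNF783 siRNA the levels were 76.2, 75.4 and 79.2 CPM against 77.5, 78.0 and 82.7 CPM. These groups overlap (-0.05, adjusted p = 0.378). Reads may be shared with 3 overlapping genes, over 1298 of the 5979 exonic bases of NFE2L2.

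KEAP1 (ENSG00000079999, chromosome 19, 10486120 to 10503741, minus strand) had 51.9, 80.7 and 79.5 CPM with ETS1 siRNA and 84.7, 82.1 and 87.3 CPM in the controls. All siRNA libraries were lower than all controls, replicate 1 by far the most. The log2 fold change was -0.26 (SE 0.159, edgeR adjusted p = 0.397), and -0.09 without replicate 1 (adjusted p = 0.0598), so KEAP1 did not pass either way. With ZNF783 siRNA it was at 93.4, 97.1 and 93.3 CPM, below the 103, 98.7 and 103 CPM of the controls in 3 of 3 libraries. It fell there by 0.10 on the log2 scale (SE 0.0352, adjusted p = 0.0249), to 93.1% of control. That call was kept in 2 of the 6 fits that each leave out 1 library and lost without siRNA replicate 1 or 3 or control replicate 1 or 3 (adjusted p up to 0.131). With a correction for GC content and gene length, described below, the value was 0.02 (adjusted p = 0.721).

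Within a library, the level of NFE2L2 divided by that of KEAP1, both per length, was 0.669 and 0.693 in ETS1 siRNA replicates 2 and 3 and 1.57 in replicate 1. The ETS1 controls had 0.636, 0.689 and 0.625, and the ratio was 0.489 to 0.534 with ZNF783 siRNA and 0.472 to 0.506 in its controls. This ratio and the one of GCLM to GCLC were chosen after their values were seen and carry no test. Apart from replicate 1 of ETS1 siRNA, the balance of the regulator pair varied little within an experiment.

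GCLC and GCLM encode the catalytic and the modifier subunit of glutamate-cysteine ligase, the rate-limiting enzyme of glutathione synthesis. GCLM (ENSG00000023909, chromosome 1, 93885205 to 93909456, minus strand) had 71.5, 65.0 and 63.8 CPM with ETS1 siRNA against 46.2, 51.2 and 50.7 CPM in the controls. All siRNA libraries were above all controls, replicate 1 being the highest. The means were 66.8 ± 4.11 and 49.4 ± 2.74 CPM (SD, n = 3), a ratio of 135% by the fit. With all libraries the call was missed (log2 fold change 0.43, SE 0.0728, edgeR adjusted p = 0.0967). Without replicate 1 GCLM rose by 0.37 (SE 0.0397, adjusted p = 6.04e-11). ZNF783 siRNA gave a different picture, with 50.2, 50.05 and 47.0 CPM against 48.4, 51.2 and 55.1 CPM, groups that overlap (-0.07, adjusted p = 0.313).

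GCLC (ENSG00000001084, chromosome 6, 53497341 to 53616970, minus strand) had 138, 137 and 139 CPM with ETS1 siRNA and 114, 119.7 and 116 CPM in the controls. Here replicate 1 did not stand apart, and the siRNA libraries were all higher. The log2 fold change was 0.24 with all libraries (SE 0.0494, edgeR adjusted p = 0.116) and 0.24 without replicate 1 (SE 0.0317, adjusted p = 3.13e-08). Leaving out this library thus changed the call of GCLC but not its value. With ZNF783 siRNA GCLC was at 122, 131 and 122 CPM, above the 112, 115 and 112 CPM of the controls. It rose by 0.15 (SE 0.0338, adjusted p = 0.000714), a call kept in all 6 fits without 1 library. Overlapping genes share 536 of the 8646 exonic bases of GCLC. The ratio of GCLM to GCLC per length was 0.826, 0.754 and 0.734 with ETS1 siRNA, above the 0.648, 0.683 and 0.694 of the controls. With ZNF783 siRNA it was 0.657, 0.611 and 0.613, below the 0.692, 0.711 and 0.786 of the controls. The ratio thus lay above its controls with one siRNA and below them with the other.

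TXNRD1 (ENSG00000198431, chromosome 12, 104215779 to 104350305, plus strand) encodes the cytosolic thioredoxin reductase, which keeps thioredoxin reduced with NADPH. It had 524, 628 and 635 CPM with ETS1 siRNA and 729.8, 714 and 695 CPM in the controls. All siRNA libraries were lower, replicate 1 the lowest. The log2 fold change of -0.26 did not pass with all libraries (SE 0.0805, edgeR adjusted p = 0.2). Without replicate 1 TXNRD1 fell by 0.18 (SE 0.0278, adjusted p = 6.91e-07), to 88.2% of control. With ZNF783 siRNA the levels of 661, 642 and 638 CPM all lay above the 627, 608 and 627 CPM of the controls, but the difference of 0.06 was not called (SE 0.0247, adjusted p = 0.068).

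SRXN1 (ENSG00000271303, chromosome 20, 646615 to 653370, minus strand) encodes sulfiredoxin, which restores over-oxidised peroxiredoxins. Its level is uncertain, since 2292 of its 2698 exonic bases are shared with another gene on the same strand. The counts gave 7.41, 11.3 and 10.5 CPM with ETS1 siRNA against 10.3, 10.5 and 10.7 CPM. Only replicate 1 was outside the controls' range by a wide margin (-0.10, edgeR adjusted p = 0.705, and 0.04 without it, adjusted p = 0.77). With ZNF783 siRNA it was at 13.5, 15.3 and 12.8 CPM against 14.9, 16.5 and 15.1 CPM, and the groups overlap (-0.16, adjusted p = 0.164).

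NQO1 (ENSG00000181019, chromosome 16, 69706996 to 69726951, minus strand) encodes a quinone reductase often used as a readout of NRF2. It had 202, 280.3 and 295 CPM with ETS1 siRNA and 232, 229 and 236 CPM in the controls. Replicate 1 lay below all controls and replicates 2 and 3 above them, so the mean of 259 ± 50.3 CPM against 232 ± 3.36 CPM (SD, n = 3) joins libraries of opposite sign. The log2 fold change was 0.16 (SE 0.133, edgeR adjusted p = 0.516). Without replicate 1 NQO1 rose by 0.30 (SE 0.0294, adjusted p = 3.91e-12), to 123% of control. With ZNF783 siRNA the levels were 161, 167 and 165 CPM against 143, 137 and 142 CPM, with no overlap. NQO1 rose there by 0.22 (SE 0.031, adjusted p = 3.71e-07), to 117% of control, and was called in all 6 fits without 1 library. An antisense gene shares 575 of the 3254 exonic bases of NQO1.

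HMOX1 (ENSG00000100292, chromosome 22, 35380361 to 35394214, plus strand) encodes haem oxygenase 1, which opens the haem ring. With ETS1 siRNA it was at 14.3, 14.4 and 14.6 CPM, just under the 15.4, 15.1 and 16.2 CPM of the controls. The difference did not pass (-0.11, edgeR adjusted p = 0.397, and -0.12 without replicate 1, adjusted p = 0.199). With ZNF783 siRNA it had 11.6, 12.6 and 9.75 CPM against 13.8, 12.2 and 13.3 CPM, overlapping groups with a wide spread (-0.20, SE 0.0908, adjusted p = 0.112), called only without siRNA replicate 2 (-0.27, adjusted p = 0.0426). No rise of HMOX1 was seen with either siRNA.

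OSGIN1 (ENSG00000140961, chromosome 16, 83948282 to 83966332, plus strand), an oxidative stress induced growth inhibitor, had 8.15, 11.2 and 9.76 CPM with ETS1 siRNA and 8.58, 8.23 and 8.96 CPM in the controls. As with NQO1, replicate 1 lay below the controls and the other 2 libraries above (0.18, SE 0.125, edgeR adjusted p = 0.433). Without replicate 1 OSGIN1 rose by 0.28 (SE 0.0811, adjusted p = 0.00697). With ZNF783 siRNA it stood at 11.7, 11.9 and 11.8 CPM against 10.1, 10.2 and 9.62 CPM, all siRNA libraries higher. It rose there by 0.24 (SE 0.09, adjusted p = 0.0395), but in none of the 6 fits that leave out 1 library was it called (0.0574 to 0.121). OSGIN1 had 148 to 552 counts per library.

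Counted over the 9 genes, 0 were called with ETS1 siRNA in the fit of all libraries, where 0.0461% of all genes tested were called. At an unadjusted p below 0.05 there were 3 (GCLM, GCLC and TXNRD1), against 18.1% of all genes. The DESeq2 Wald test called 2 and limma-voom 0. The groups did not overlap for 5 of 9 genes, 2 higher and 3 lower, where 35.3% of all genes did not overlap, 17.5% higher and 17.8% lower. Without replicate 1, 5 of 9 were called: NQO1, GCLM, GCLC and OSGIN1 higher and TXNRD1 lower. In that fit 23% of all genes were called, 9.96% higher and 13% lower. The groups did not overlap for 7 of 9, against 46.6% of all genes, with 2 libraries set against 3. With ZNF783 siRNA 4 of 9 were called, NQO1, GCLC and OSGIN1 higher and KEAP1 lower, where 25.1% of all genes were called, 11.3% higher and 13.8% lower. The groups did not overlap for 5 of 9, 4 higher and 1 lower, against 38.2% of all genes, 18.3% higher and 19.8% lower. The median log2 fold change of the 9 genes was 0.16, 0.04 and -0.05 in these 3 fits, beside 0.01, -0.00 and 0.00 over all genes tested.

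**Figure D2:**
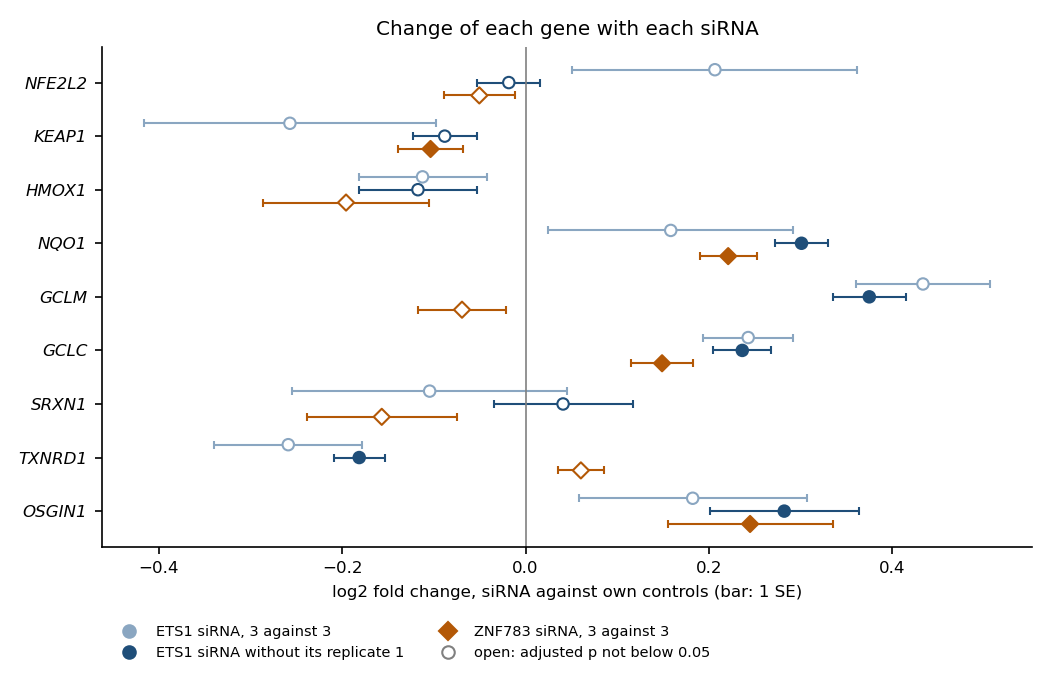
Log2 fold change of each gene against its own controls on the horizontal axis, with bars of 1 SE. Pale circles are ETS1 siRNA with 3 libraries against 3, dark circles the same without replicate 1, and diamonds ZNF783 siRNA. Filled markers have an adjusted p below 0.05. Without replicate 1 the ETS1 bars are shorter for all 9 genes, and GCLM and TXNRD1 are where the 2 siRNAs lie on opposite sides of 0 with the widest gaps.

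NQO1, GCLC and OSGIN1 were higher with each of the siRNAs, ETS1 siRNA being taken without replicate 1. The experiments share no library. Of 17548 genes tested in both, 633 were called higher with both, which is 32.1% of those higher with ETS1 siRNA, 31.8% of those higher with ZNF783 siRNA and 3.61% of those tested. For these 3 genes the ETS1 siRNA values of 0.30, 0.24 and 0.28 stand beside ZNF783 siRNA values of 0.22, 0.15 and 0.24.

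The difference between the siRNAs was tested in 1 fit of all 12 libraries, as the ETS1 siRNA change minus the ZNF783 siRNA change. Each siRNA was used in 1 experiment only, so a difference between siRNAs cannot be told apart from one between experiments. Of the 9 genes only GCLM was called in that fit, where 1.68% of all genes tested were called. The GCLM change was more positive with ETS1 siRNA by 0.52 on the log2 scale (SE 0.0956, edgeR adjusted p = 0.0163). The call was lost (adjusted p 0.0501 to 0.0591) without ETS1 control replicate 1, ZNF783 siRNA replicate 3, ZNF783 control replicate 2 or ZNF783 control replicate 3, while the value stayed between 0.44 and 0.56 in all 12 fits that leave out 1 library. TXNRD1 had a difference of -0.30 (SE 0.0833, adjusted p = 0.093), called without ETS1 siRNA replicate 3 (-0.35) or replicate 1. Without ETS1 siRNA replicate 1 both GCLM (0.44, adjusted p = 1.01e-06) and TXNRD1 (-0.24, adjusted p = 9.93e-07) were called, where 13.7% of all genes were. NQO1 (0.08, adjusted p = 0.238) and GCLC (0.09, adjusted p = 0.233) were not called in that fit, nor were the remaining 5 genes.

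**Figure D3:**
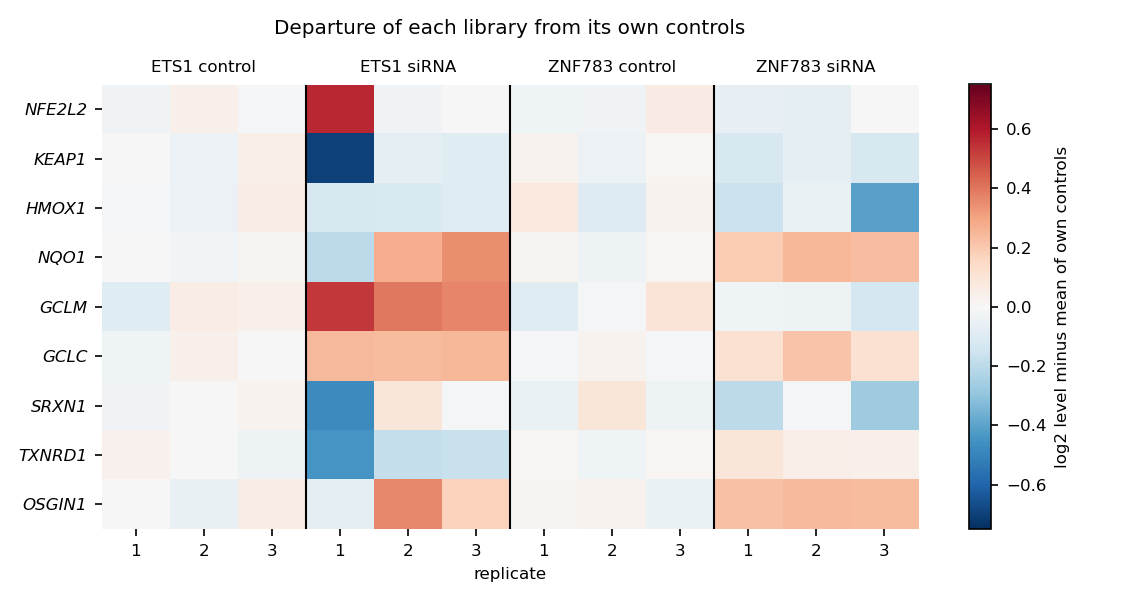
Departure of each library (columns, by group and replicate) from the mean of its own controls for each of the 9 genes (rows), as a colour scale in log2 units, red above and blue below the controls. Replicate 1 of ETS1 siRNA departs from replicates 2 and 3 of its group in NFE2L2, KEAP1, NQO1, SRXN1, TXNRD1 and OSGIN1, while GCLM and GCLC are red in all 3 libraries.

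Across libraries, how some pairs of the genes varied together depended on that 1 library. Taking each library's log2 departure from the mean of its own controls, NFE2L2 and KEAP1 had a Pearson r of -0.92 over 12 libraries and 0.26 over the 11 without ETS1 siRNA replicate 1. NQO1 and GCLC went from 0.47 to 0.93. GCLM against TXNRD1 (-0.92 and -0.91) and NQO1 with OSGIN1 (0.88 and 0.87) hardly moved. These are descriptions of libraries that fall into groups and share controls. By the same measure the genes most like NFE2L2 among 8958 compared were SCAF8 (r = 0.99), PROSER1 (0.98), NPIPB5 (0.98), TMEM69 (0.97) and TPM3 (0.97). Without replicate 1 these values were 0.71, 0.31, 0.49, 0.28 and 0.34. The closest over those 11 libraries were CLGN (0.91), TMEM165 (0.89), GAB2 (0.89), PUM3 (0.88) and RDH11 (0.83).

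Antioxidant response elements were looked for in the 250 bases before the RefSeq start sites (GRCh38.p14), where 8 of the 9 genes, all but HMOX1, had an entry. NFE2L2, KEAP1 and TXNRD1 have 2 entries each, which makes 11 promoters. The letters TGACNNNGC, searched on both strands, are in 4 of the 11 promoters, those of 3 genes (GCLM, KEAP1 and TXNRD1), and in 10.9% of all 35116 promoters of this length. None of these matches overlaps a match to the AP-1 letters TGANTCA. GCLM and TXNRD1, which went in opposite directions with ETS1 siRNA, both hold one. The matches are shown with 10 bases on each side, 5′ to 3′ on the strand that carries them, capitals marking the match. The GCLM match and the last match each of KEAP1 and TXNRD1 lie on the strand opposite to the gene.
GCLM, chr1:93909446-93909474, plus strand: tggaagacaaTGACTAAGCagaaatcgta
KEAP1, chr19:10502807-10502835, minus strand: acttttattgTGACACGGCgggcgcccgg
KEAP1, chr19:10502784-10502812, plus strand: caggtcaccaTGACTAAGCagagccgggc
TXNRD1, chr12:104215670-104215698, plus strand: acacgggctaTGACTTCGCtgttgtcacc
TXNRD1, chr12:104286920-104286948, minus strand: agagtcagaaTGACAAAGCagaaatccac
The longer stretches around the GCLM match and the upstream TXNRD1 match are given on the strand of the gene, so that the GCLM match reads as its reverse complement.
GCLM, chr1:93909456-93909680, minus strand: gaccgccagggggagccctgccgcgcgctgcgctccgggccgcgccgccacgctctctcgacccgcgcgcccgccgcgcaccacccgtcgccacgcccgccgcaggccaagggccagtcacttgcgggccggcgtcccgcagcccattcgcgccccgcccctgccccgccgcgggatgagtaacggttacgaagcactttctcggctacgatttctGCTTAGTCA
TXNRD1, chr12:104215529-104215778, plus strand: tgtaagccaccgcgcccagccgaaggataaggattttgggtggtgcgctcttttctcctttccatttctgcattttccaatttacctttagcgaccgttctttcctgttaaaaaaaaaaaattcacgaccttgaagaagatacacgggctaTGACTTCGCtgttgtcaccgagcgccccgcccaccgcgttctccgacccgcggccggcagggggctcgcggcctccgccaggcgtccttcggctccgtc
The letters CCGGAAG, a strict form of the ETS site, were searched on both strands. They are in 0 of the 11 promoters (8.52% of all promoters). Shorter or looser forms of the ETS site were not searched, so their absence is not shown. The AP-1 letters are in 1 of the 11 promoters, that of OSGIN1 (6.57%). A match is a description of letters, and no match says only that they are not in this window.

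GC content moved with the changes. Over all genes tested the rank correlation (Spearman) of log2 fold change with transcript GC content was -0.50 for ETS1 siRNA, -0.36 without its replicate 1 and -0.38 for ZNF783 siRNA, across genes, which are not independent. GC content of the 9 genes ran from 40.4% for GCLM to 61.9% for OSGIN1, with KEAP1 at 61.3% and HMOX1 at 60.2%. With each library corrected for GC content and length, the ETS1 calls without replicate 1 were the same 5 genes: NQO1 0.29, GCLM 0.30, GCLC 0.20, OSGIN1 0.39 and TXNRD1 -0.21. With ZNF783 siRNA the call of KEAP1 was lost and its sign turned (0.02, edgeR adjusted p = 0.721). NQO1 (0.21), GCLC (0.10) and OSGIN1 (0.38) stayed called, and NFE2L2 (-0.10, adjusted p = 0.041) and GCLM (-0.14, adjusted p = 0.0211) were now called lower. The split of calls with ZNF783 siRNA was thus 3 higher and 1 lower without the correction and 3 higher and 2 lower with it.

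**Figure D4:**
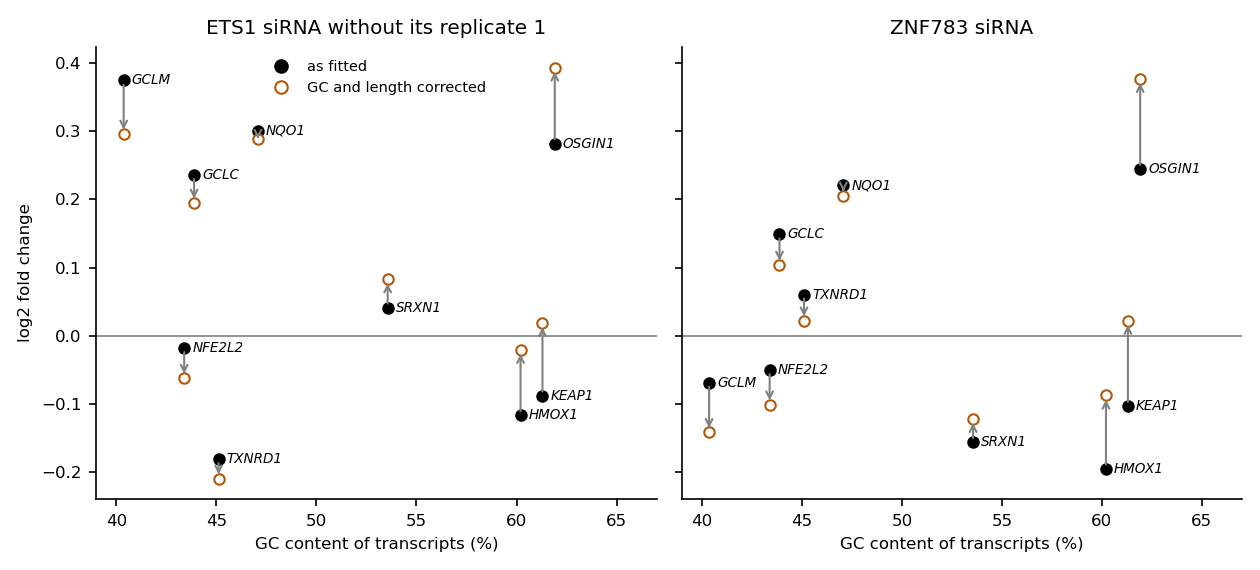
Log2 fold change (vertical axis) of each gene by the GC content of its transcripts (horizontal axis, percent), as fitted (black) and with each library corrected for GC content and length (open), for ETS1 siRNA without its replicate 1 and for ZNF783 siRNA. The arrows point down for the genes below 50% GC and up for those above it, and KEAP1 ends just above 0 in both panels, at 0.02.

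The surrounding pathway was described by 122 further genes in 9 lists, from KEAP1 partners to glutathione, thioredoxin, NADPH, iron and detoxifying enzymes. With ETS1 siRNA 0 of 112 tested were called by edgeR with all libraries (22 at an unadjusted p below 0.05). Without replicate 1, 17 were higher and 28 lower, in the fit where 9.96% of all genes were called higher and 13% lower. The split depended on the scaling: with library size alone it was 24 higher and 20 lower, and over all genes the share of calls that were higher went from 43.4% to 60.2%. With ZNF783 siRNA 14 were higher and 28 lower of 109 tested, where 11.3% of all genes were called higher and 13.8% lower. These were 15 and 25 with library size alone and 14 and 19 with the GC correction. With the GC correction the ETS1 siRNA counts without replicate 1 were 19 higher and 26 lower. The counts of single lists below have these same shares as their background. The median log2 fold changes were -0.07, -0.03 and -0.02 in these 3 fits, beside 0.01, -0.00 and 0.00 over all genes.

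Among 12 partners and regulators of KEAP1 and NRF2, 1 was higher and 4 lower with ETS1 siRNA without replicate 1, and 2 and 3 with ZNF783 siRNA. BTRC, an F-box protein that marks phosphorylated NRF2 for degradation, fell with ETS1 siRNA without replicate 1 (-0.23, edgeR adjusted p = 4.84e-06, and -0.23, adjusted p = 0.143, with all libraries) and rose with ZNF783 siRNA (0.18, adjusted p = 0.0012). SYVN1, an endoplasmic reticulum ubiquitin ligase, fell with ZNF783 siRNA (-0.22). PGAM5, a mitochondrial phosphatase bound by KEAP1, fell there by 0.14, a call lost with the GC correction. Of 7 tested partners and rivals of NRF2, 1 was higher and 3 lower with ETS1 siRNA without replicate 1, and 0 and 3 with ZNF783 siRNA. The small MAF gene MAFK (-0.20 and -0.19) and the related factor NFE2L1 (-0.10 and -0.12) fell with both, though neither call with ZNF783 siRNA held with the GC correction. NFE2L3, another related factor, fell with ZNF783 siRNA (-0.28). With all libraries the ETS1 siRNA values were -0.45 for MAFK (adjusted p = 0.358) and -0.09 for NFE2L1 (adjusted p = 0.333).

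Glutathione genes were 3 higher and 9 lower of 24 with ETS1 siRNA without replicate 1, and 5 higher and 8 lower with ZNF783 siRNA. The 3 higher with ETS1 siRNA were SLC7A11 (0.52, edgeR adjusted p = 7.19e-05), GPX2 (1.06, adjusted p = 3.27e-05) and GPX3 (0.33, adjusted p = 0.0216). With all libraries their values were 0.58, 1.16 and 0.31 (adjusted p = 0.0738, 0.0939 and 0.244). GPX2 was low, with means of 1.93 CPM with ETS1 siRNA and 0.857 CPM in the controls. CHAC1, which degrades glutathione, fell with both, ETS1 siRNA again taken without replicate 1 (-0.19 and -0.26). With all libraries its ETS1 siRNA value was -0.32 (adjusted p = 0.256). GGT1, which cleaves it outside the cell, fell with ZNF783 siRNA from 7.10 ± 0.19 to 4.61 ± 0.576 CPM (SD, n = 3), or by 0.64 on the log2 scale. SLC3A2, the heavy chain of the cystine exchanger, fell with ZNF783 siRNA (-0.16). Thioredoxin and peroxiredoxin genes were 1 higher and 4 lower of 19 with ETS1 siRNA without replicate 1, and 2 and 3 with ZNF783 siRNA. PRDX2 fell with both (-0.31 and -0.10, the second not with the GC correction), as did PRDX5 (-0.12 and -0.22). With all libraries the ETS1 siRNA values were -0.35 for PRDX2 (adjusted p = 0.0967) and -0.37 for PRDX5 (adjusted p = 0.412). With ZNF783 siRNA the call of PRDX2 was lost without siRNA replicate 3 or control replicate 1 or 2 (adjusted p 0.0581 to 0.0933), and that of PRDX5 without siRNA replicate 1 or 2 (0.0566 to 0.0616). SESN1, a sestrin, rose with ZNF783 siRNA from 20.6 ± 0.802 to 27.6 ± 0.766 CPM (SD, n = 3; log2 fold change 0.43).

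NADPH-supplying genes were 1 higher and 3 lower of 9 with ETS1 siRNA without replicate 1 and 0 and 1 with ZNF783 siRNA, the 1 being the pentose phosphate enzyme PGD (-0.09, lost with the GC correction and without siRNA replicate 1 or 3 or control replicate 2). The 1 higher with ETS1 siRNA was ME1 (0.46, edgeR adjusted p = 8.28e-10, and 0.51, adjusted p = 0.0834, with all libraries). Haem and iron genes were 1 higher and 2 lower of 10 with ETS1 siRNA without replicate 1, and 2 and 3 with ZNF783 siRNA. FTL, the ferritin light chain, rose with ZNF783 siRNA (0.22) and fell with ETS1 siRNA (-0.11 without replicate 1, and -0.13, adjusted p = 0.291, with all libraries), while the biliverdin reductases BLVRA (-0.20) and BLVRB (-0.17, lost with the GC correction) fell with ZNF783 siRNA. Detoxifying genes were 3 higher and 2 lower of 18 with ETS1 siRNA without replicate 1 and 1 higher and 5 lower of 15 with ZNF783 siRNA. The 3 higher with ETS1 siRNA were ABCC1 (0.94, edgeR adjusted p = 4.7e-15), ABCC5 (0.17, adjusted p = 5.21e-05) and CBR1 (0.14, adjusted p = 0.00648). With all libraries their values were 0.71, 0.12 and 0.03 (adjusted p = 0.214, 0.351 and 0.908). UGDH, which makes the sugar donor of glucuronidation, fell with ZNF783 siRNA from 279.5 ± 3.36 to 215 ± 0.325 CPM (SD, n = 3; edgeR adjusted p = 1.05e-14), and the export pump ABCC2 (-0.33) and the aldehyde reductase AKR1A1 (-0.18) also fell.

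Other genes linked to NRF2 were 4 higher and 1 lower of 10 with ETS1 siRNA without replicate 1 and 2 and 2 with ZNF783 siRNA. SLC6A6, the taurine transporter, rose with ETS1 siRNA without replicate 1 (0.31, edgeR adjusted p = 7.78e-12, and 0.29, adjusted p = 0.1, with all libraries) and fell with ZNF783 siRNA (-0.37, adjusted p = 5.98e-12). RIT1, a small GTPase, rose with both (0.35 and 0.21, and 0.31, adjusted p = 0.13, for ETS1 siRNA with all libraries), and the channel gene PANX2 rose with ZNF783 siRNA (0.28). Superoxide and peroxide enzymes were 2 higher of 3 tested with ETS1 siRNA without replicate 1 and 0 with ZNF783 siRNA.

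**Figure D5:**
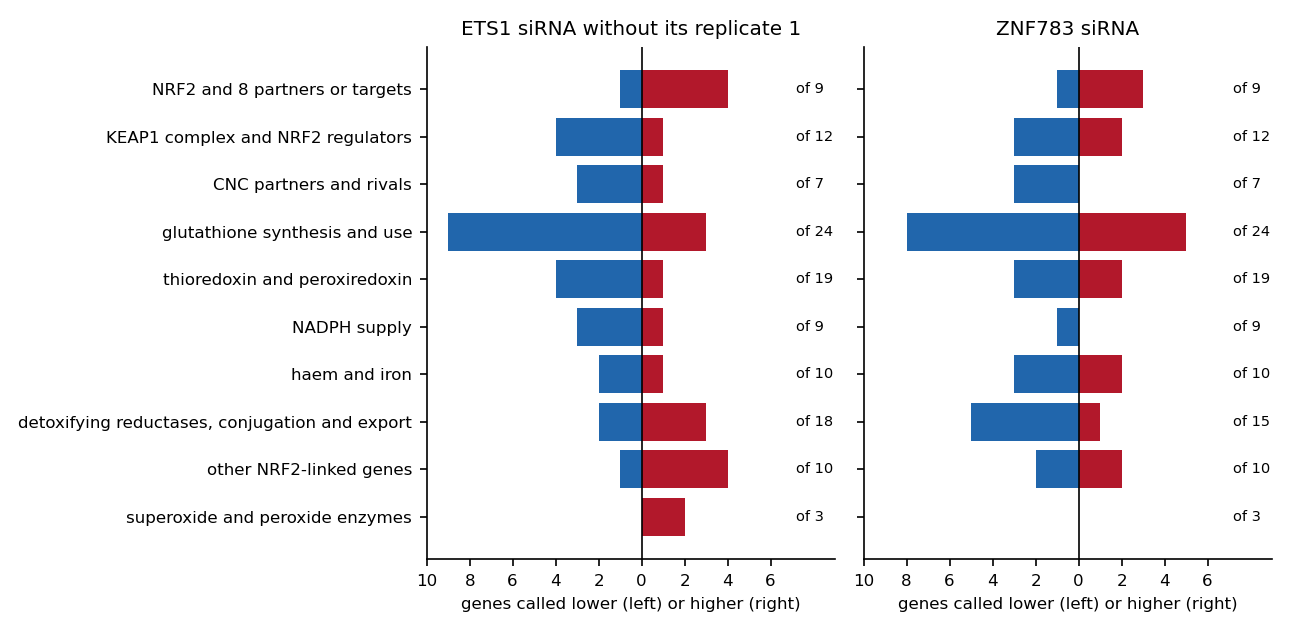
Number of genes called lower (left of 0) and higher (right of 0) at an adjusted p below 0.05 in the 9 genes and in each of the 9 further lists, with the number tested at the right, for ETS1 siRNA without its replicate 1 and for ZNF783 siRNA. Of the 9 genes, 4 and 3 are called higher and 1 is called lower in each panel, while the glutathione list has 9 and 8 called lower.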

How the data were processed

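RNA-seq counts per gene were analysed for 12 libraries of 22Rv1 cells in 4 groups of 3, taken from the labels. Per the labels' protocols, total RNA was made into libraries with a directional kit. The deposited values are raw counts, 1 table per experiment. Per the file headers the authors counted paired alignments over exons, summed by gene, with featureCounts 2.0.1 and a GRCh38 annotation of release 107, with no strand option, so reads of genes overlapping on opposite strands cannot be told apart. Per the submitters' processing notes the build was hg38. Which release of the aligner was run is not given. Symbols matched 99.8% of 61860 identifiers. Coordinates, exon lengths and GC content came from GENCODE 29 and promoters from RefSeq (GRCh38.p14), both GRCh38.

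Each experiment was fitted alone with edgeR 4.0.16 (R 4.3.3): TMM scaling, filterByExpr, robust quasi-likelihood F test, Benjamini-Hochberg adjustment over all genes tested, call at an adjusted p below 0.05. The difference of the siRNA effects was a contrast in 1 fit of 12 libraries. The step was tested on simulated counts. The members and gene lists were chosen with earlier results of these data known. Text names all 9 members. Of each further list it names up to 3 genes with the smallest adjusted p among those called in the fits of all libraries. For likeness it names the 5 genes of at least 10 CPM with the highest Pearson correlation to NFE2L2. GPX2, GPX3, ME1, ABCC1, ABCC5 and CBR1 were named after their values were seen. SOD2 matched more than 1 identifier and was left out. No replicate pair agreed within sampling noise, so none was merged.

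Alternatives were DESeq2 1.42.0 size factors and Wald test, limma 3.58.1 voom with and without quality weights, library size alone, other filters, a threshold of 0.01, the replicate number as a block, leaving out each library, and offsets from natural splines of GC content and length (5 degrees of freedom) in every library.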

Additional observations from a re-analysis of the deposited data

Results flagged for a closer look

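The change of 8 genes differed between the siRNAs in the edgeR fit of all 12 libraries, tested as the ETS1 siRNA change minus the ZNF783 siRNA change, each against its own controls. As stated above, such differences cannot be told apart from differences between the experiments. GCLM, the modifier subunit of glutamate-cysteine ligase, had a difference of 0.52 on the log2 scale (adjusted p = 0.0163), described above.

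The other 7 are the only ones called of 112 further pathway genes tested, in the fit that called 1.68% of all genes. SLC7A11, the light chain of the cystine exchanger that feeds glutathione synthesis, stood at 208 and 139 ± 9.64 CPM with ETS1 siRNA and in its controls, and at 231 ± 4.87 and 240.3 ± 9.14 CPM with ZNF783 siRNA and in its controls (SD, n = 3; the ETS1 siRNA libraries ran from 196 to 223 CPM). Its difference was 0.65 (adjusted p = 0.00248) and was called in all 12 fits that leave out 1 library. SLC6A6, the taurine transporter, had 136 ± 5.12 against 111 ± 0.89 CPM and 96.7 ± 0.781 against 125 ± 1.22 CPM, a difference of 0.67 (adjusted p = 9.71e-05), also called in all 12. BTRC, the F-box protein, had 46.5 ± 0.277 against 54.5 ± 0.497 CPM and 60.9 ± 0.649 against 53.8 ± 1.46 CPM, a difference of -0.40 (adjusted p = 0.00629) called in all 12. SLC7A11 and TXN2 were named after their values were seen.

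The remaining 4 calls were each lost in some of the 12 fits that leave out 1 library and so have fewer samples. Their values kept their sign in all 12. They ran from 0.29 to 0.40 for UGDH, -0.54 to -0.46 for SESN1, -0.37 to -0.30 for FTL and -0.39 to -0.29 for TXN2. UGDH had a difference of 0.37 (adjusted p = 0.0149), lost in 5 of the 12 fits (up to 0.0582): those without ETS1 control replicate 1 or 3, ZNF783 siRNA replicate 1 or 3, or ZNF783 control replicate 1. SESN1 had -0.49 (adjusted p = 0.0158), also lost in 5 (up to 0.0617), those without ETS1 control replicate 1 or 2, ZNF783 siRNA replicate 1, or ZNF783 control replicate 1 or 2. FTL had -0.34 (adjusted p = 0.0373), lost in 9 of 12, all but those without a library of ETS1 siRNA, and with the GC correction (-0.23, adjusted p = 0.162). TXN2, the mitochondrial thioredoxin, had -0.33 (adjusted p = 0.0462), lost in 10 of 12, all but those without ETS1 siRNA replicate 1 or 2.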

How the results depend on the processing

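Of 549 values of the 9 genes under the alternatives, 465 kept direction and side of the threshold, 28 lost the call, 35 gained it and 21 changed sign. Of 805 values of other named genes, which leave out GPX2, GPX3, ME1, ABCC1, ABCC5 and CBR1, the numbers were 676, 94, 28 and 7. The cause was not tested, except that leaving out libraries leaves fewer samples.

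The count of the 9 genes called with ETS1 siRNA, 0, was 1 without a filter, 2 by the DESeq2 Wald test, 5 with voom quality weights, 3 with all 12 libraries in 1 fit and 5 without replicate 1 with GC correction, and 0 to 5 with 1 library left out. Only leaving out siRNA replicate 1, whose quality weight was 0.0931 against 1.24 to 1.98, raised it. The count with ZNF783 siRNA, 4, was 2 without a filter, 2 by DESeq2, 0 with all 12 libraries, 2 at a threshold of 0.01 and 2 to 4 with 1 library left out. The count for the difference, 1, was 2 without a filter, by DESeq2, with quality weights and without replicate 1 with GC correction, 0 at 0.01 and 0 to 2 with 1 library left out.

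Replicate numbers were not shown to pair the samples: same-numbered libraries had a correlation of deviations of -0.242 to 0.316 in the ETS1 experiment and -0.0833 to -0.0459 in the other. The check rests on 3 such pairs per experiment and cannot decide whether the samples were paired. With the number as a replicate block the counts were 0, 3 and, for the difference, 0 (GCLM 0.51, adjusted p = 0.115), and for the difference 0 with block and GC correction. Of the other 7 genes whose changes differed between the siRNAs, SLC7A11 (adjusted p = 0.0486) and SLC6A6 (0.0096) were called with the block and BTRC (-0.40, 0.0805), UGDH, SESN1, FTL and TXN2 (0.0611 to 0.134) were not. Over all genes the block called 0, 4476 and 54.

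Signs changed as follows, on the log2 scale. With ETS1 siRNA, quality weights gave NFE2L2 -0.0033 and SRXN1 0.045. GC correction gave HMOX1 0.078 and FTL 0.034, and 0.077 and 0.031 with the block. Without replicate 1 with GC correction NFE2L2 was -0.062, KEAP1 0.018 and SRXN1 0.083. Library size alone gave UGDH 0.0015. With 1 library left out NFE2L2 ran from -0.018 to 0.31, SRXN1 from -0.23 to 0.041 and UGDH from -0.087 to 0.0018. With ZNF783 siRNA, GC correction gave KEAP1 0.022 and TXN2 0.045, and 0.023 and 0.046 with the block, and TXN2 ran from -0.032 to 0.0042 with 1 library left out. For the difference, quality weights gave KEAP1 0.034, NQO1 0.091 and OSGIN1 0.063, GC correction OSGIN1 0.0018, and without replicate 1 with GC correction NQO1 was 0.084 and OSGIN1 0.015. With 1 library left out KEAP1 ran from -0.25 to 0.014, NQO1 from -0.15 to 0.079, OSGIN1 from -0.17 to 0.036 and SRXN1 from -0.055 to 0.20. SRXN1, HMOX1 and OSGIN1 had the lowest levels of the 9, while NFE2L2, KEAP1 and NQO1, at higher levels, changed sign too. The part of low counts in these changes was not tested.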
